A study of Mus musculus with 12 samples.

Results

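Potassium channel genes encode the pore-forming and auxiliary subunits of the channels that let potassium leave or enter a cell. They were taken here as the gene symbols made of Kcn, letters and a number, with a summed estimated count of at least 100 over the 6 total RNA libraries. Kcne2 and Kcnj13 were left out by name because they are marker genes of the choroid plexus epithelium. Of 92 matching symbols 81 were kept, out of 24736 symbols in the table. The 9 symbols under the minimum were Kcna10 and Kcnk16, both listed at 0 in every library, Kcne1 with 4 estimated counts, Kcnj1 with 5, Kcnk15 with 38, Kcna7 with 43, Kcnmb3 with 53, Kcnj15 with 74 and Kcnk18 with 98. Just inside the minimum were Kcne3 with 155, Kcnn4 with 156 and Kcnv2 with 216 estimated counts. All 81 genes had a count above 0 in every library and passed the filter on low counts.

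The RNA came from the hippocampus of male mice aged 4 months. The transgenic animals (APP/PS1) carry APPswe and PSEN1dE9, and the wild-type (WT) animals are their littermates. Each genotype gave 3 stranded total RNA libraries, numbered 1, 2 and 3 for APP/PS1 and 1, 2 and 4 for WT. The sources used here give neither the strain background nor the promoter that drives the transgenes. The submitters name 3 mice of each genotype, and the libraries were taken to be 1 per animal. Levels are given as CPM, estimated counts scaled to the TMM-adjusted library size, always in the order of the replicate numbers. CPM are not divided by transcript length, so that they compare a gene between libraries and not genes with each other. A positive log2 fold change means a higher level in APP/PS1, and its standard error (SE) comes from edgeR's quasi-likelihood test.

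Neurons use potassium channels to set the resting potential, to end each action potential and to limit how often they fire. Voltage-gated (Kv) channels are tetramers whose subunits mix within a subfamily, and auxiliary subunits change their gating and traffic. Inward rectifiers and tandem-pore-domain leak channels carry current near rest, and calcium- and sodium-activated channels open after spiking. Hippocampal pyramidal cells, granule cells, interneurons and glia each express their own selection of these genes.

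The libraries held 120958765 to 146904552 estimated counts, and App, which the construct carries, separated the genotypes in every library, at 1580, 1522 and 1548 CPM in WT and 3170, 3465 and 2948 CPM in APP/PS1. APP/PS1 replicate 3 stood apart. In it the summed level of 16 cerebellar marker genes was 8105 CPM, against 909 to 1069 CPM in the other 5 libraries, and 16 of 16 were highest there. Gabra6, a subunit of the GABA-A receptor of cerebellar granule cells, was at 282.9 CPM in this library and at 0 to 0.329 CPM in the others. Markers of CA1 pyramidal cells summed to 543 CPM in it against 712 to 795 CPM, with 9 of 10 lowest there. Markers of CA2 and CA3 pyramidal cells summed to 243 CPM against 371 to 466 CPM, with 10 of 10 lowest there. Markers of dentate gyrus granule cells summed to 747 CPM against 621 to 658 CPM, with 7 of 10 lowest and 2 highest there. Without Calb1, the most abundant of these 10, the sum was 347 CPM against 535 to 558 CPM. The 10 thalamic markers summed to 784 CPM against 317 to 385 CPM but split, with 4 highest and 4 lowest there, and Rora alone was at 392 CPM. The 16 markers of GABAergic interneurons summed to 2210 CPM against 1592 to 1744 CPM, with 5 highest there (Reln and Pvalb among them) and 11 lowest, Sst, Vip and Lhx6 included. Of all genes tested, 31.4% were highest and 30.2% lowest in this library. No marker of these lists was at 0 in all libraries. The part of these markers in the channel values was not tested, so each result is given with and without this library. In bulk tissue fewer cells of a type and less RNA per cell cannot be told apart.

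No potassium channel gene passed the test between the genotypes. Of the 81 genes 0 had an adjusted p under 0.05 over all genes tested by edgeR's quasi-likelihood test, and the smallest adjusted p among them was 0.887. Of all 18060 genes tested 1, Dag1, passed, a share of 0.00554%. At an unadjusted p under 0.05 there was 1 channel gene, Kcnn4, which is 1.23% of the 81 against 3.42% of all genes tested. DESeq2 gave 0 past the adjusted threshold of the 79 for which it gave a p, against 0.145% of all genes, and 4 at an unadjusted p under 0.05 against 4.89%. These 4 were Kcnn4 and Kcnk10, higher in APP/PS1, and Kcnf1 and Kcns3, lower. Limma-voom also gave 0 past the adjusted threshold and 3 at an unadjusted p under 0.05, against 3.43% of all genes. With library quality weights the counts were 0 and 2, against 0.0277% and 4.87% of all genes.

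Without APP/PS1 replicate 3 the count past the adjusted threshold was again 0 of 81 by the same edgeR test, with a smallest adjusted p of 0.995. Of all genes 0.0273% passed, which are the 5 genes Dag1, Fgf12, Prnp, Gabra3 and App. At an unadjusted p under 0.05 there were 3 channel genes, 3.70% of them against 4.03% of all genes. Kcnn4 was higher in APP/PS1 and Kcnk3 and Kcnk12 were lower. The count of channel genes at an unadjusted p under 0.05 depended on the library left out. It was 8 without APP/PS1 replicate 1 (8.17% of all genes), 6 without APP/PS1 replicate 2 (5.31%), 2 without WT replicate 1 (2.02%), and 0 without WT replicate 2 (1.88%) or WT replicate 4 (1.96%). Where APP/PS1 replicate 3 was in a fit that left out another APP/PS1 library, Kcng4, Kcnj12 and Kcnk10 were among them, with log2 fold changes of up to 2.40 (Kcnj12) and 1.36 (Kcnk10).

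The fold changes of the set as a whole were small. The median log2 fold change of the 81 genes was -0.069, with 28 positive and 53 negative, beside a median of 0.011 over all genes tested. Without APP/PS1 replicate 3 it was -0.040, with 30 positive and 51 negative, beside -0.0012 over all genes. Summed over the 81 genes, the level was 6062, 5730 and 5755 CPM in WT and 6299, 5429 and 6872 CPM in APP/PS1, and the groups overlapped. The median size of the log2 fold change, regardless of sign, was 0.21 with 6 libraries and 0.10 without APP/PS1 replicate 3, beside 0.14 and 0.099 over all genes. A fold change over 2, which is an absolute log2 value over 1, was seen for 5 genes with 6 libraries (Kcng4, Kcnj12, Kcnn4, Kcnk3 and Kcnk10) and for 1, Kcnn4, without that library. Of all 18060 genes tested, 632 were over that size with 6 libraries and 465 without APP/PS1 replicate 3. The sign differed between the fit of 6 libraries and the fit of 5 for 34 of the 81, beside 4691 of all 18060 genes tested.

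**Figure D1:**
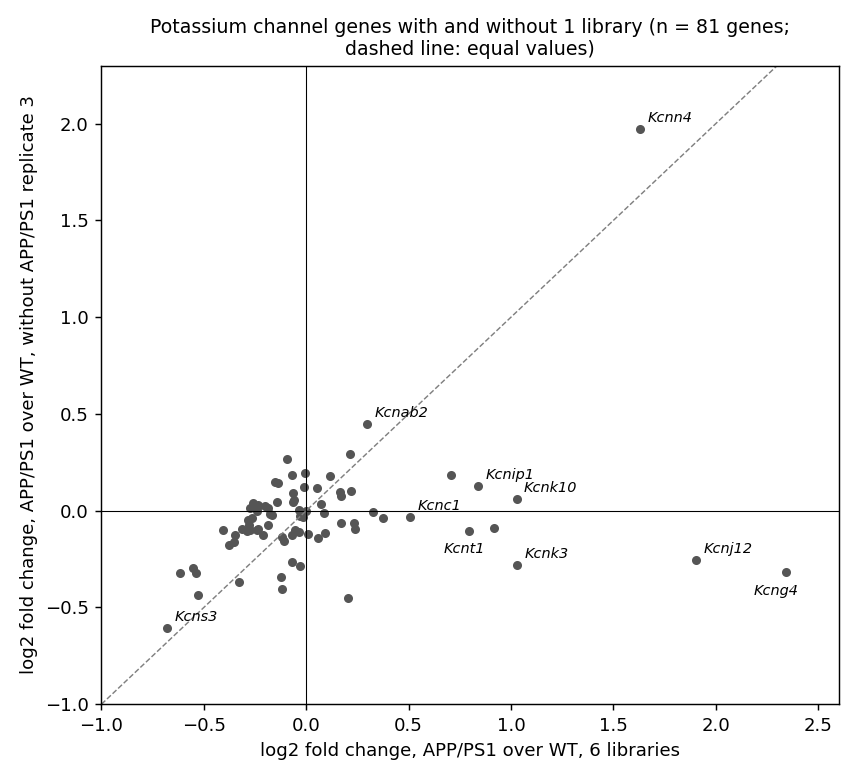
Log2 fold change of APP/PS1 over WT for the 81 potassium channel genes, 1 point a gene, with all 6 libraries (x axis) and without APP/PS1 replicate 3 (y axis); the dashed line marks equal values. Kcng4, Kcnj12, Kcnk3 and Kcnk10 lie over 1 on the x axis and near 0 on the y axis. Kcnn4, which met the minimum count through its APP/PS1 libraries, is the only gene over 1 on both.

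The widest differences among these genes were in 1 library. APP/PS1 replicate 3 held the highest of the 6 levels for 26 of the 81 genes (32.1%) and the lowest for 39 (48.1%), against 31.4% and 30.2% of all genes tested. It was over 2-fold above the highest of the other 5 libraries for 7 genes, 8.64% of the 81 against 3.08% of all genes. It was over 2-fold below the lowest of the other 5 for 2 genes, 2.47% against 1.67%. In both directions it was over 2-fold outside the other 5 for 11.1% of the channel genes and 4.76% of all genes, and the highest or lowest of 6 for 80.2% and 61.6%. APP/PS1 replicates 1 and 2 and WT replicate 2 had 0 channel genes that far apart, and WT replicates 1 and 4 had 1 each. Among the other 5 libraries, the highest and the lowest level of a gene lay within 1.5-fold for 58 of the 81 and within 2-fold for 75. For these counts no share over all genes was taken.

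**Figure D2:**
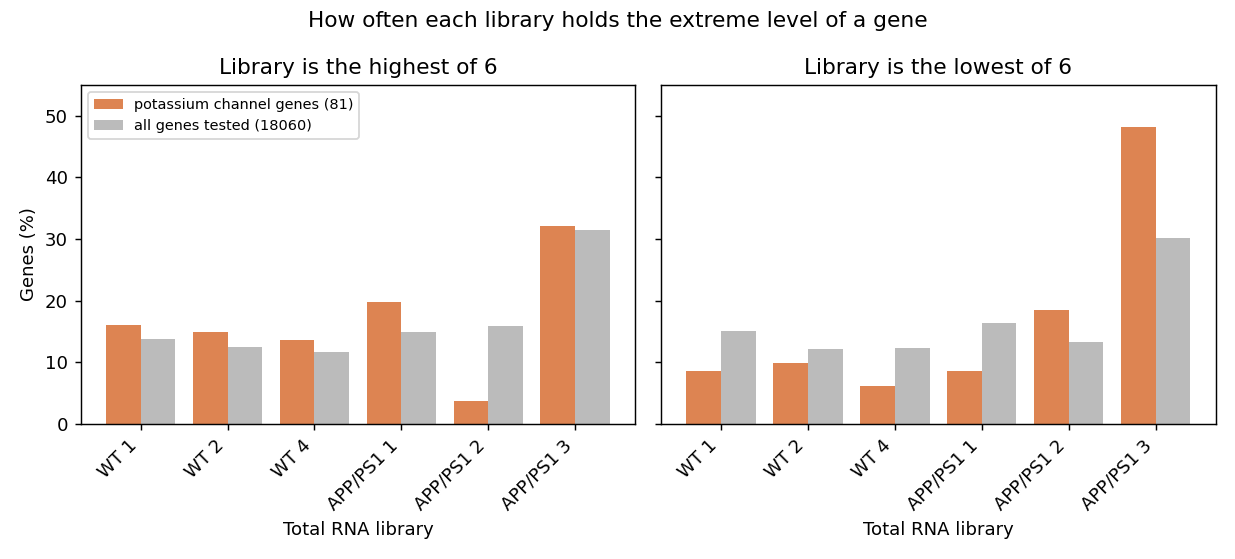
Share of genes, in percent, for which each library holds the highest (left) or the lowest (right) of the 6 levels; orange bars are the 81 potassium channel genes and grey bars all 18060 genes tested. APP/PS1 replicate 3 has the tallest bars in both panels, and its orange bar stands above the grey one for the lowest level (48.1% against 30.2%).

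The 7 genes far above in APP/PS1 replicate 3 came from 5 of the 12 channel classes. Among them, the levels there were 14.7 times (Kcng4), 10.2 times (Kcnj12), 4.81 times (Kcnk3), 3.96 times (Kcnk10) and 3.43 times (Kcnt1) the mean of the other 5 libraries. The 2 genes far below were Kcng3, whose mean in the other 5 was 2.46 times its level in this library, and Kcnj5, with 2.72 times. Between 0.5 and 2 times the mean of the other 5 were 61 of the 81, a count for which no share over all genes was taken. Kcng3 and Kcng4, far apart in opposite directions, belong to the same class.

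**Figure D3:**
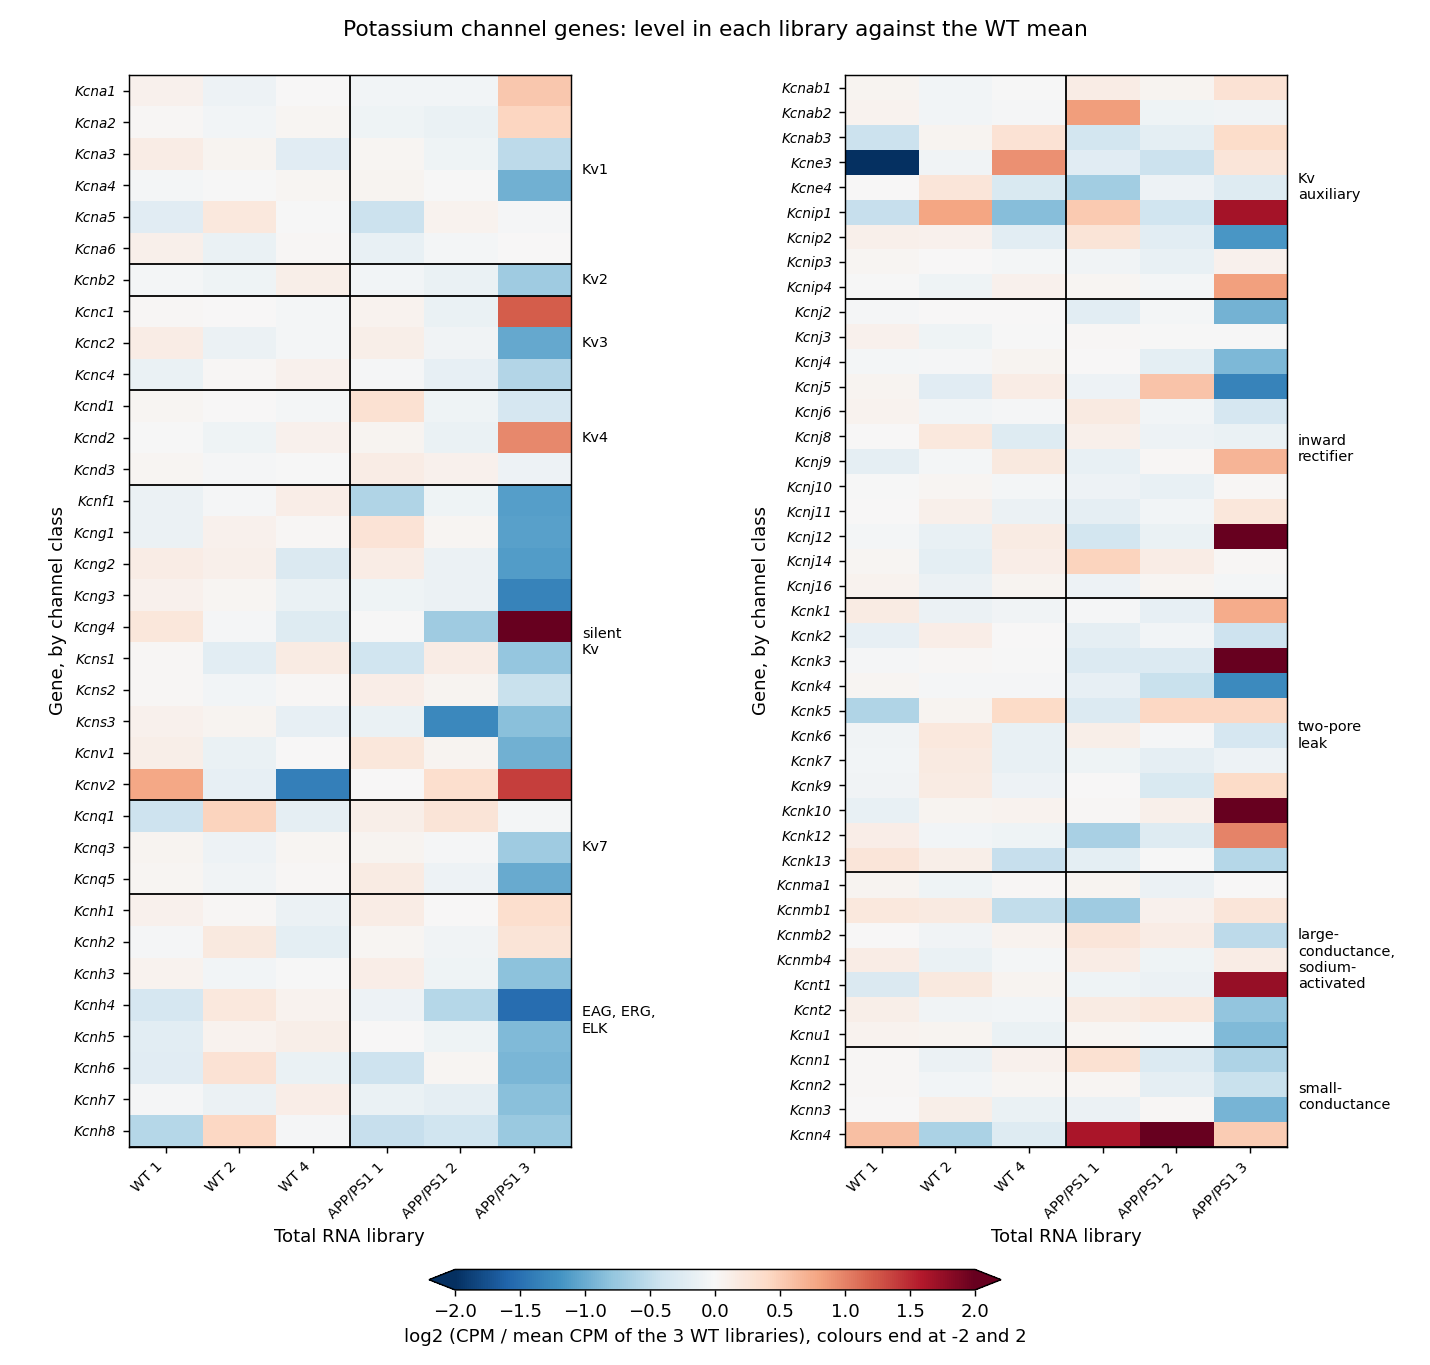
Level of 77 potassium channel genes in each library, as the log2 ratio of its CPM to the mean CPM of the 3 WT libraries; rows are genes in blocks by class, columns are libraries, red is above and blue below the WT mean, and colours end at -2 and 2. The column of APP/PS1 replicate 3 holds most of the strong colours, red and blue within the same blocks, while most cells of the other columns are pale, with Kcne3, Kcnv2, Kcns3 and Kcnn4 among the exceptions.

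The Kv1 subfamily makes low-threshold channels of axons and terminals. Kcna1 was at 496, 435 and 468 CPM in WT and 447, 450.1 and 677 CPM in APP/PS1. Kcna2, which shares axonal channels with Kcna1, was at 404, 383 and 408 CPM in WT and 374, 362 and 539 CPM in APP/PS1. For both, APP/PS1 replicate 3 was the highest library, and APP/PS1 replicates 1 and 2 lay among or under the WT values. The log2 fold change was 0.17 (SE 0.17) for Kcna1 and 0.094 (SE 0.16) for Kcna2, and without that library -0.061 (SE 0.071) and -0.12 (SE 0.058). Kcna2 then had groups that did not overlap, with an unadjusted p of 0.0894. Kcna4, the A-type member found in axon terminals, took the opposite position at 85.2, 87.3 and 89.5 CPM in WT and 90.3, 86.5 and 44.8 CPM in APP/PS1. Its 5 other libraries lay within 85.2 to 90.3 CPM, and its log2 fold change moved from -0.24 (SE 0.25) to 0.013 (SE 0.062) without APP/PS1 replicate 3. The remaining members were Kcna3, at 13.7, 12.9 and 10.6 CPM in WT and 12.8, 11.7 and 8.66 CPM in APP/PS1, Kcna5, with 1.71 to 2.66 CPM over the 6 libraries, and Kcna6, with 75.8 to 90.8 CPM. The class median was -0.083, and -0.079 without that library.

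The Kv2 subunits form the delayed rectifier of the soma of pyramidal cells. Kcnb2 was at 38.0, 36.9 and 42.5 CPM in WT and 37.5, 35.7 and 23.8 CPM in APP/PS1. APP/PS1 replicate 3 was the lowest library, and the other 5 lay within 35.7 to 42.5 CPM. The log2 fold change was -0.27 (SE 0.18) with an unadjusted p of 0.168, and -0.10 (SE 0.087) without that library.

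Electrically silent Kv subunits form no channel alone and join Kv2 subunits to alter their gating. Of the 10, 7 were lowest in APP/PS1 replicate 3, like Kcnb2, and 2 were highest there. In that library 48.1% of the 81 channel genes and 30.2% of all genes tested were lowest, and 32.1% and 31.4% were highest. The class median was -0.21 with 6 libraries and -0.044 with 5. Kcnf1 was at 62.0, 66.3 and 74.3 CPM in WT and 44.8, 63.7 and 31.4 CPM in APP/PS1, so that APP/PS1 replicates 1 and 3 were its lowest libraries. This gave a log2 fold change of -0.54 (SE 0.24) with an unadjusted p of 0.0666, and -0.32 (SE 0.16) with 0.0856 without APP/PS1 replicate 3. Kcns3 was at 8.50, 8.36 and 7.17 CPM in WT and 7.27, 3.29 and 4.47 CPM in APP/PS1, and here APP/PS1 replicate 2 was the lowest. On the log2 scale the difference was -0.68 (SE 0.29) (unadjusted p 0.0523) and -0.61 (SE 0.32) without APP/PS1 replicate 3. Kcnv1 was at 41.8, 35.4 and 38.6 CPM in WT and 45.4, 40.1 and 19.8 CPM in APP/PS1 and changed sign, from -0.14 (SE 0.29) to 0.14 (SE 0.10). Kcng1, Kcng2 and Kcng3 were at 10.1, 8.14 and 6.29 CPM in APP/PS1 replicate 3, against 19.8 to 25.7, 14.5 to 19.7 and 14.6 to 16.8 CPM in the other 5 libraries. Kcng4 (chr8:119623854-119635680), of the same subfamily, was at 10.9, 9.15 and 7.76 CPM in WT and 9.26, 5.69 and 126 CPM in APP/PS1. Its 3 relatives were thus at their lowest in the library where it was at its highest, and its log2 fold change went from 2.34 (SE 1.13) to -0.31 (SE 0.24) without that library. Kcns1 ranged from 2.69 to 5.12 CPM and Kcns2 from 20.9 to 31.1 CPM, both lowest in APP/PS1 replicate 3. Kcnv2 ranged from 0.0815 to 0.549 CPM, where few reads lie behind each value.

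Kv3 subunits open at high voltage and close fast, which lets fast-spiking interneurons and many cerebellar neurons fire at high rates. Kcnc1 was at 217, 214 and 206 CPM in WT and 223, 194 and 489.8 CPM in APP/PS1, with 2.32 times the mean of the other 5 libraries in APP/PS1 replicate 3. That library was the highest and APP/PS1 replicate 2 the lowest. Kcnc2, which interneurons also express, was at 131, 109 and 115 CPM in WT and 128, 112 and 57.9 CPM in APP/PS1. Kcnc4, the inactivating member, was at 61.8, 68.9 and 71.5 CPM in WT and 66.6, 60.2 and 44.7 CPM in APP/PS1, and for Kcnc2 and Kcnc4 APP/PS1 replicate 3 was the lowest library. The log2 fold change of Kcnc1 was 0.51 (SE 0.34) with an unadjusted p of 0.180, and -0.032 (SE 0.075) without that library.

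Promoter sequence is shown for 3 genes that were far above in APP/PS1 replicate 3 and 1 that was low there, all chosen after their values were seen. Given are the 150 bases before the transcription start from RefSeq (GRCm38.p6), 5′ to 3′ on the gene's own strand, with GC boxes (GGGCGG or its reverse complement CCGCCC) in capitals. They lie at chr7:46396318-46396467 on the plus strand (Kcnc1), chr8:119635681-119635830 on the minus strand (Kcng4), chr11:61065654-61065803 on the plus strand (Kcnj12) and chr2:107290439-107290588 on the plus strand (Kcna4). The stretches of Kcnc1 and Kcnj12 lie inside the RefSeq span of their gene.
Kcnc1: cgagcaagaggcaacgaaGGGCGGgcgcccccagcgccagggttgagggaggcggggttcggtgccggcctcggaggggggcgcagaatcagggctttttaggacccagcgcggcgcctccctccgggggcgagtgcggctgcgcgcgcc
Kcng4: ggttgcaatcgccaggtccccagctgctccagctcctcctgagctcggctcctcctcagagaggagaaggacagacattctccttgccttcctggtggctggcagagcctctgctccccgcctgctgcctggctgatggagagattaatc
Kcnj12: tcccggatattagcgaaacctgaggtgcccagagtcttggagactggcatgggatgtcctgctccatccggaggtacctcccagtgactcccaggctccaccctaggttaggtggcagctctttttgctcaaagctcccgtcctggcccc
Kcna4: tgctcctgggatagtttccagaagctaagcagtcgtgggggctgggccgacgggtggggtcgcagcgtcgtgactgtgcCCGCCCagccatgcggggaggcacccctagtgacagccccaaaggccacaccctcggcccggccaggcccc
Over the 250 bases before the start, Kcnc1 held 3 GC boxes, of which 1 lies in the stretch shown, Kcna4 held 1, and Kcng4 and Kcnj12 held 0, so that the genes with high values differed in this feature among themselves. Promoter entries were found for 57 of the 81 genes, with 81 entries in all. A GC box was in 48.1% of these entries and in 32.7% of all 32851 promoters of the table. TATAAA or TTTATA was in 2.47% of them against 12.4%. The cAMP response element TGACGTCA, its own reverse complement, was in 0 of 81 against 1.55% of all promoters. These are matches of letters and not evidence of binding.

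Kv4 subunits carry the A-type current of dendrites. Kcnd2, the main A-type subunit of CA1 dendrites, was at 152, 144 and 163 CPM in WT and 159, 140.0 and 297 CPM in APP/PS1. APP/PS1 replicate 3 was its highest library and the other 5 lay within 140.0 to 163 CPM. The log2 fold change was 0.38 (SE 0.28), and -0.037 (SE 0.085) without that library. Kcnd3 was at 173, 167 and 169 CPM in WT and 189, 181 and 159 CPM in APP/PS1, lowest in APP/PS1 replicate 3. In the other libraries the APP/PS1 values were above the WT values, with a log2 fold change of 0.12 (SE 0.056) and an unadjusted p of 0.0753. Kcnd1, the only one of the 81 genes on the X chromosome, ranged from 6.54 to 10.2 CPM.

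The KChIP proteins, encoded by Kcnip1 to Kcnip4, bind the Kv4 amino terminus and raise its surface expression. Their 4 genes took different positions in APP/PS1 replicate 3. Kcnip4 was at 58.9, 55.5 and 63.1 CPM in WT and 60.7, 57.4 and 104 CPM in APP/PS1, with APP/PS1 replicate 3 the highest. Kcnip2, which hippocampal pyramidal cells express, was at 135, 134 and 108 CPM in WT and 149.8, 109 and 55.9 CPM in APP/PS1, with the same library the lowest. Kcnip3, also a transcription regulator, was at 92.3, 90.2 and 87.9 CPM in WT and 85.8, 81.7 and 96.1 CPM in APP/PS1, and without that library its groups did not overlap. Kcnip1 varied most within WT, at 9.13, 21.7 and 6.94 CPM in WT and 18.0, 9.53 and 40.0 CPM in APP/PS1, so that no direction could be read. The log2 fold change of Kcnip4 was 0.32 (SE 0.23) and -0.0066 (SE 0.079) without APP/PS1 replicate 3.

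The other Kv auxiliary genes encode cytoplasmic beta subunits and small membrane proteins. Kcnab2, the main beta subunit of brain Kv1 channels, was at 421, 386 and 391 CPM in WT and 713, 378 and 381 CPM in APP/PS1. The single high value was that of APP/PS1 replicate 1, and the other 5 libraries lay between 378 and 421 CPM. This gave a log2 fold change of 0.30 (SE 0.25) with 6 libraries and -0.070 without APP/PS1 replicate 1. RefSeq places Kcnab2 over part of Nphp4. Kcnab1 was at 119.7, 111 and 114 CPM in WT and 127, 119 and 141 CPM in APP/PS1, and its log2 fold change of 0.17 (SE 0.086) had an unadjusted p of 0.0998. APP/PS1 replicate 2 was just under WT replicate 1, and the other APP/PS1 libraries were above WT. Kcnab3 ranged from 19.8 to 34.3 CPM, Kcne4 from 0.642 to 1.24 CPM and Kcne3 from 0.0329 to 0.374 CPM.

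Kv7 subunits form the M-current, which muscarinic receptors close and which restrains repeated firing. Kcnq3 was at 113, 101 and 111 CPM in WT and 113, 107 and 66.4 CPM in APP/PS1, and Kcnq5 at 87.0, 79.9 and 85.8 CPM in WT and 93.9, 78.8 and 41.8 CPM in APP/PS1. Both were lowest in APP/PS1 replicate 3. Without that library the genotypes overlapped for both, with log2 fold changes of 0.015 (SE 0.072) and 0.032 (SE 0.092). With it they were -0.18 (SE 0.20) and -0.24 (SE 0.27). Kcnq1 ranged from 0.65 to 1.18 CPM, and Kcnq1ot1, its antisense transcript, from 582 to 719 CPM. Because the strand setting of the counting is unknown here, reads of these 2 genes may not be separated.

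The EAG, ERG and ELK genes encode slow voltage-gated channels that act near the firing threshold. Of the 8, 6 were lowest in APP/PS1 replicate 3 and 2 highest, where 30.2% of all genes tested were lowest and 31.4% highest. Kcnh7, an ERG subunit, was at 77.9, 72.6 and 87.0 CPM in WT and 72.4, 69.7 and 44.1 CPM in APP/PS1. All 3 APP/PS1 libraries were under all 3 WT libraries, by a narrow margin for replicate 1. On the log2 scale the difference was -0.35 (SE 0.19) with an unadjusted p of 0.115, and -0.16 (SE 0.09) with 0.122 without APP/PS1 replicate 3. Kcnh1, an EAG subunit, was at 84.6, 80.2 and 73.1 CPM in WT and 87.7, 79.8 and 100.4 CPM in APP/PS1, with a log2 fold change of 0.17 (SE 0.11). Kcnh8, an ELK subunit, was at 1.23, 2.43 and 1.79 CPM in WT and 1.32, 1.38 and 1.08 CPM in APP/PS1, with a log2 fold change of -0.53 (SE 0.29) and an unadjusted p of 0.114. Its 3 APP/PS1 values and WT replicate 1 were close together, and WT replicate 2 was the highest. Kcnh2, the ERG subunit known from cardiac repolarization, ranged from 27.7 to 38.2 CPM. Kcnh3, Kcnh4, Kcnh5 and Kcnh6 were at 25.7, 1.04, 13.0 and 0.542 CPM in APP/PS1 replicate 3, each under the lowest of the other 5 libraries. The class median was -0.31 with 6 libraries and -0.10 with 5.

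Inward rectifiers pass potassium more easily inward than outward and hold cells near rest. The Kir2 group of strong rectifiers split. Kcnj12 (chr11:61022564-61073269) was at 8.48, 7.82 and 9.70 CPM in WT and 6.70, 7.88 and 82.7 CPM in APP/PS1. Its log2 fold change of 1.90 (SE 0.96) became -0.25 (SE 0.14) without APP/PS1 replicate 3. Kcnj2, of the same group, was at 18.7, 19.2 and 19.2 CPM in WT and 16.4, 18.6 and 9.87 CPM in APP/PS1. All 3 of its APP/PS1 libraries were under its 3 WT libraries, by a narrow margin for replicate 2, and the WT libraries lay close together. The log2 fold change was -0.35 (SE 0.22) with an unadjusted p of 0.167, and -0.12 (SE 0.087) with 0.200 without that library. Kcnj4 was at 25.7 CPM in APP/PS1 replicate 3 and at 41.7 to 49.8 CPM in the others, and Kcnj14 ranged from 1.47 to 2.27 CPM.

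The G-protein-gated rectifiers answer to GABA-B and other inhibitory receptors. Kcnj3 was at 214, 190.4 and 201 CPM in WT and 204, 199 and 200.1 CPM in APP/PS1, with a log2 fold change of -0.0024 (SE 0.073) and -0.0025 (SE 0.067) without APP/PS1 replicate 3. Kcnj6, its partner in hippocampal neurons, ranged from 112 to 159 CPM with the lowest value in that library. Kcnj9 was at 57.4, 63.0 and 73.7 CPM in WT and 58.5, 65.8 and 104 CPM in APP/PS1, highest there, and Kcnj5 at 1.10, 0.915 and 1.18 CPM in WT and 0.996, 1.58 and 0.424 CPM in APP/PS1, lowest there. Kcnj11 and Kcnj8 form ATP-sensitive channels, the first in neurons and the second in pericytes and smooth muscle. They ranged from 24.3 to 32.3 CPM and from 2.07 to 2.84 CPM, and their sulfonylurea receptor partners Abcc8 and Abcc9 from 31.3 to 52.4 CPM and from 12.5 to 15.6 CPM.

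Kcnj10 encodes the channel by which astrocytes clear potassium released by neurons. It was at 257, 268 and 254 CPM in WT and 242, 235 and 265 CPM in APP/PS1. APP/PS1 replicates 1 and 2 were under all WT libraries and replicate 3 was among them. This gave a log2 fold change of -0.069 (SE 0.077), and -0.13 (SE 0.057) with an unadjusted p of 0.0648 without that library. The 14 astrocyte markers summed to 11655, 12014 and 11295 CPM in WT and 10583, 11089.5 and 9843 CPM in APP/PS1, a sum that was lower in every APP/PS1 library and of which Slc1a2 held the largest share. Without Slc1a2 it was 5632, 5699 and 5637 CPM in WT and 5227, 4902 and 5918 CPM in APP/PS1, so that APP/PS1 replicate 3 was then the highest library. Of the 14, 7 were highest and 4 lowest in that library, and 5 were under all WT libraries in both other APP/PS1 libraries. Of all genes tested, 31.4% were highest and 30.2% lowest in that library, and 9.37% were under all WT libraries in both others. Their part in the Kcnj10 values was not tested. Kcnj16, its glial partner, ranged from 31.0 to 35.2 CPM and overlapped between genotypes.

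Tandem-pore-domain (K2P) channels carry background leak. Kcnk3, a TASK channel closed by acid, was at 13.2, 13.7 and 13.4 CPM in WT and 11.1, 11.1 and 60.1 CPM in APP/PS1. Replicates 1 and 2 of APP/PS1 were at nearly the same level and under the WT libraries. On the log2 scale the difference was 1.03 (SE 0.67) with APP/PS1 replicate 3 and -0.28 (SE 0.082) without it (unadjusted p 0.0131, adjusted p 0.995 by edgeR). Kcnk9, the other TASK channel, ranged from 9.30 to 14.9 CPM. Kcnk10, a TREK channel opened by stretch and lipids, was at 21.2, 24.3 and 24.5 CPM in WT and 23.7, 25.1 and 94.0 CPM in APP/PS1. Its log2 fold change was 1.03 (SE 0.54) with an unadjusted p of 0.0988, and 0.06 (SE 0.095) without that library. Kcnk4, of the same group, was at 4.59, 4.39 and 4.38 CPM in WT and 3.99, 3.29 and 1.84 CPM in APP/PS1, and all 3 APP/PS1 values were under the WT values. This gave a log2 fold change of -0.55 (SE 0.28) with an unadjusted p of 0.0937, and -0.30 (SE 0.15) with 0.0935 without APP/PS1 replicate 3. Kcnk2, the third TREK gene, ranged from 27.6 to 40.5 CPM and was lowest there.

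Among the TWIK genes, Kcnk1 was at 65.7, 54.0 and 56.0 CPM in WT and 57.7, 52.3 and 97.6 CPM in APP/PS1, highest in APP/PS1 replicate 3. On the log2 scale the difference was 0.24 (SE 0.24), and -0.095 (SE 0.10) without it. Kcnk6 ranged from 3.21 to 4.65 CPM and Kcnk7 from 0.326 to 0.418 CPM. Of the THIK genes, Kcnk12 was at 4.86, 4.27 and 4.19 CPM in WT and 2.82, 3.69 and 8.83 CPM in APP/PS1. Without APP/PS1 replicate 3, where it was highest, its log2 fold change was -0.45 (SE 0.18) with an unadjusted p of 0.0412. Kcnk13, which microglia use to set their resting potential, was at 5.86, 5.37 and 3.58 CPM in WT and 4.33, 4.89 and 3.32 CPM in APP/PS1. It overlapped between genotypes, and the 14 microglial markers summed to 309, 311 and 269 CPM in WT and 315, 280.2 and 195 CPM in APP/PS1. Kcnk5 ranged from 0.403 to 0.82 CPM.

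Large-conductance channels open with calcium and depolarization together, and the related sodium-activated channels open with intracellular sodium. Kcnma1, the pore of the large-conductance channel, was at 272, 248 and 267 CPM in WT and 274, 241 and 265 CPM in APP/PS1, and its log2 fold change was -0.014 (SE 0.082). Kcnmb4, its neuronal beta subunit, ranged from 24.2 to 29.6 CPM, Kcnmb2 from 1.92 to 3.27 CPM and Kcnmb1 from 1.31 to 2.55 CPM. Pore and beta subunits thus overlapped between genotypes with all 6 libraries. The sodium-activated pair took opposite positions. Kcnt1 was at 33.3, 46.9 and 42.2 CPM in WT and 38.4, 37.7 and 136 CPM in APP/PS1, with a log2 fold change of 0.79 (SE 0.51) and -0.11 (SE 0.14) without APP/PS1 replicate 3. Kcnt2 was at 55.9, 48.9 and 49.7 CPM in WT and 57.5, 59.9 and 29.8 CPM in APP/PS1, with -0.07 (SE 0.25) and 0.18 (SE 0.082). Without that library the APP/PS1 values of Kcnt2 were above all WT values, at an unadjusted p of 0.0635. Kcnu1, known for its role in sperm, ranged from 1.20 to 2.33 CPM.

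Small-conductance channels open with calcium alone and give the slow pause after a spike. Kcnn2 was at 68.3, 64.5 and 69.1 CPM in WT and 69.0, 59.3 and 49.2 CPM in APP/PS1, and Kcnn3 at 50.5, 54.7 and 45.9 CPM in WT and 46.2, 51.4 and 26.4 CPM in APP/PS1. Both were lowest in APP/PS1 replicate 3, with log2 fold changes of -0.19 (SE 0.13) and -0.28 (SE 0.24), and of -0.075 (SE 0.086) and -0.049 (SE 0.098) without it. Kcnn1 ranged from 7.54 to 14.4 CPM. Kcnn4 (chr7:24369826-24385212), the intermediate-conductance member of blood cells and microglia, was the channel gene with the smallest p. It met the minimum of 100 through the APP/PS1 libraries, with 118 estimated counts summed there against 38 in WT, and at the WT level in all 6 it would have had about 76. Its choice among the 81 genes was therefore not independent of its difference, and its p is a description. Its estimated counts were 18, 8 and 12 in WT and 36, 63 and 19 in APP/PS1, which are 0.148, 0.0631 and 0.0815 CPM and 0.304, 0.466 and 0.139 CPM. APP/PS1 replicates 1 and 2 were above every WT library, and replicate 3 was just under WT replicate 1. The mean was 0.0975 ± 0.0447 CPM for the WT libraries and 0.303 ± 0.164 CPM for the APP/PS1 libraries (± SD, n = 3). Its log2 fold change was 1.63 (SE 0.60) with an unadjusted p of 0.0307 and an adjusted p of 0.887 by edgeR. Without APP/PS1 replicate 3 it was 1.97 (SE 0.57) with 0.0117 and 0.995. Leaving out any 1 library gave log2 fold changes between 1.18 and 2.05 for Kcnn4, with an unadjusted p over 0.05 without APP/PS1 replicate 1 or 2 or WT replicate 2 or 4. Since about 4 estimated counts were judged to stand for 1 sequenced fragment, these levels rest on few fragments, and with the counts divided by 4 Kcnn4 did not pass the filter on low counts. The 14 choroid plexus markers summed to 1607, 1918 and 1784 CPM in WT and 1907, 4238 and 2562 CPM in APP/PS1. APP/PS1 replicate 2 was the highest library for them, in 14 of 14, as for Kcnn4. In APP/PS1 replicate 1 their sum lay within the WT range and Kcnn4 above it. In APP/PS1 replicate 3 their sum lay above the WT range and Kcnn4 within it. The part of the choroid plexus and microglial markers in the Kcnn4 values was not tested.

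**Figure D4:**
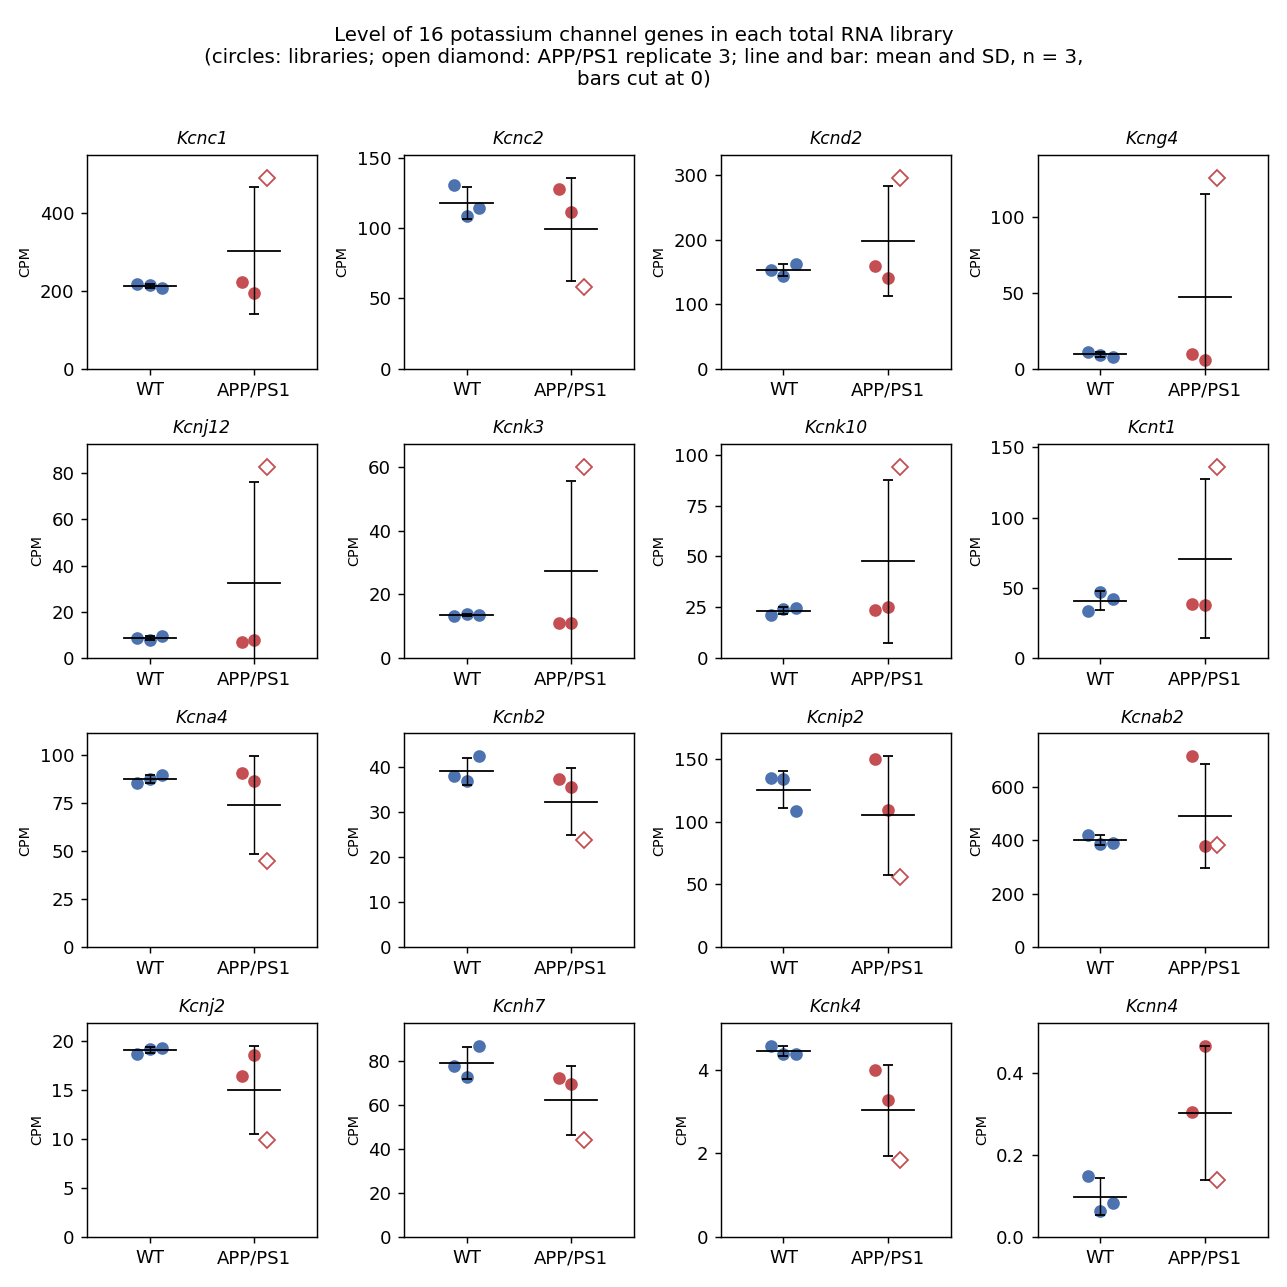
CPM of 16 potassium channel genes in each library, WT in blue and APP/PS1 in red, with APP/PS1 replicate 3 as an open diamond; the line and bar are the mean and SD of 3 libraries, cut at 0. The diamond is over 2-fold above the highest other point for Kcnc1, Kcng4, Kcnj12, Kcnk3, Kcnk10 and Kcnt1, and above it by less than 2-fold for Kcnd2. It is under the other points for Kcna4, Kcnb2, Kcnc2, Kcnip2, Kcnj2, Kcnh7 and Kcnk4, and Kcnab2 is high in APP/PS1 replicate 1.

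Complete separation of the genotypes was seen for few of these genes with 6 libraries, and for about the share of all genes without APP/PS1 replicate 3. With 6 libraries the groups did not overlap for 3 of 81, Kcnj2, Kcnk4 and Kcnh7, all lower in APP/PS1, against 4.76% of all genes tested that were lower without overlap. None of the 81 was higher without overlap, against 5.63% of all genes. Taking both directions, the share was 3.70% of the channel genes and 10.4% of all genes. Without APP/PS1 replicate 3 it was 18.5% (15 genes) and 19.4%. Of these 15, 6 were higher in APP/PS1 (Kcnmb2, Kcnn4, Kcns2, Kcnj14, Kcnt2 and Kcnd3), where 10.0% of all genes were. The other 9 were lower (Kcnj2, Kcnk3, Kcnk4, Kcnj10 and Kcna2 among them), where 9.37% of all genes were.

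Some of the genes are neighbours on a chromosome. The 81 genes lie on 19 chromosomes, and 5 pairs lie within 100000 bases of each other in RefSeq (GRCm38.p6). Kcna1 (chr6:126636463-126645801) and Kcna6 (chr6:126708328-126740834) were at 1.47 and 1.04 times the mean of the other 5 libraries in APP/PS1 replicate 3. Kcna2 (chr3:107090883-107115005) and Kcna3 (chr3:107036162-107038129) were at 1.39 and 0.701 times. Kcnj2 and Kcnj16, 38196 bases apart on chromosome 11, were at 0.536 and 0.982 times, and Kcnj10 and Kcnj9, 11888 bases apart on chromosome 1, at 1.06 and 1.63 times. Kcnip1 and Kcnmb1, whose spans overlap on chromosome 11, were at 3.06 and 1.27 times, and reads in the overlap may not be separated.

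Genes of proteins that bind these channels were read from a list of 28, of which 27 were tested and which also holds the antisense transcript Kcnq1ot1. None passed the adjusted threshold by edgeR with 6 libraries or with 5, and at an unadjusted p under 0.05 there were 0 higher and 1 lower (0 and 2 without APP/PS1 replicate 3). In either direction 3.42% of all genes were at such a p with 6 libraries and 4.03% without APP/PS1 replicate 3, and nothing particular to the list is read from these counts. The first was Cntnap2, which holds Kv1 channels beside the nodes of myelinated axons, at 148, 143 and 157 CPM in WT and 135, 121 and 117 CPM in APP/PS1. All APP/PS1 libraries were under all WT libraries. This gave a log2 fold change of -0.26 (SE 0.084) with an unadjusted p of 0.0177, and -0.23 (SE 0.074) with 0.0202 without APP/PS1 replicate 3. The second, present without that library, was Cask, a scaffold protein of synapses, at 107, 111 and 105 CPM in WT and 77.2, 69.4 and 107 CPM in APP/PS1. APP/PS1 replicates 1 and 2 were under every WT library and replicate 3 was among them. On the log2 scale the difference was -0.35 (SE 0.16) with an unadjusted p of 0.0704, and without that library -0.56 (SE 0.073) with an adjusted p of 0.373 by edgeR. Amigo3, of the family of Kv2-binding AMIGO proteins, was at 2.58, 3.26 and 3.01 CPM in WT and 3.83, 3.38 and 6.59 CPM in APP/PS1, with a log2 fold change of 0.64 (SE 0.28).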

How the data were processed

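For each gene symbol and each of the 6 total RNA libraries the authors deposited a whole-number estimated count, used without rounding. HISAT2, StringTie and DESeq are listed in the submitters' processing notes with no version or role, as is the build mm10. How the counting was done, and with which strand setting, is not given in the sources used here. Low values piled up at 4, 5 and 8, so 1 fragment was judged to stand for about 4 counts, and depth in fragments is uncertain. Small RNA libraries were not used here.

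APP/PS1 was compared with WT over all genes with edgeR 4.0.16 in R 4.3.3 (quasi-likelihood test, TMM, default filter, no covariate), with Benjamini-Hochberg adjustment at 0.05 over 18060 genes. The procedure was tested on simulated data with the same variation for all genes and no outlying library. That simulation does not cover a library like APP/PS1 replicate 3. The SE comes from the fold change and the F statistic. The biological coefficient of variation was 26.5%, and 19.7% without APP/PS1 replicate 3. Counts of genes past a threshold were set beside the same share of all genes. DESeq2 1.42.0 and limma 3.58.1 were alternatives, beside other scalings and filters, counts divided by 4, a replicate block and leaving out each library.

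The 81 genes, their 12 classes and the marker lists were chosen with earlier results of these data known. Genes were named by a rule (per class, the 2 highest in mean CPM, the 2 of smallest p, and the 1 of smallest p without APP/PS1 replicate 3, plus the 3 partner genes of smallest p). Others appear as members of a family given whole, or were chosen after their values were seen, as Kcng4, Kcnk12 and Kcnip2 were. Some genes are not reported here by name, and counts over the 81 include them. All 81 symbols matched RefSeq (GRCm38.p6, the build of mm10).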

Additional observations from a re-analysis of the deposited data

How the results depend on the processing

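No potassium channel gene passed the adjusted threshold under any of the 15 settings run, and the median log2 fold change of the 81 genes stayed between -0.11 and -0.040. Of all genes tested, 26 passed with DESeq2, 5 with limma-voom and quality weights and 2 with the replicate block, against 1 in edgeR. The number of channel genes at an unadjusted p under 0.05, 1 as reported, was 2 with library totals only, 0 with a mean count of at least 100, 4 with DESeq2, 3 with limma-voom, 2 with quality weights, 0 with the counts divided by 4 and 3 with the replicate block. Of all genes, 4.89% were at such a p with DESeq2, 3.43% with limma-voom and 4.87% with quality weights. For the other settings no share over all genes was taken, and nothing particular to the channel genes is read from these counts. Kcnn4 was removed before testing by the minimum of 100 and by the division by 4. The number with groups that did not overlap was 5 with library totals only, a setting for which no share over all genes was taken. Leaving out each library in turn gave 0 to 6 of all genes past the threshold. At an unadjusted p under 0.05 by edgeR it gave 0 to 8 channel genes, where 1.88% to 8.17% of all genes were. Groups did not overlap for 8 to 19 channel genes, where fewer libraries make overlap rarer. For this count the share over all genes was taken only without APP/PS1 replicate 3 (19.4%), and nothing particular to the channel genes is read from it. Replicate numbers 1 and 2 are shared between the genotypes, and the deviations of same-numbered libraries correlated at 0.0931 and -0.0424. These are deviations from means of 3 libraries, and in APP/PS1 replicate 3 weighs heavily on them, so they cannot decide whether libraries are paired. The labels name no pairing, and the numbers were not taken as pairs. In the replicate block fit the libraries with unshared numbers, APP/PS1 replicate 3 and WT replicate 4, did not inform the fold change.

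The sign of a named gene turned as follows. With the replicate block the log2 fold changes were -0.051 (Kcna1), -0.095 (Kcna2), 0.035 (Kcna4), -0.052 (Kcnc1), 0.15 (Kcnv1), 0.041 (Kcnq3), 0.046 (Kcnq5), 0.00033 (Kcnj3), -0.16 (Kcnj12), -0.12 (Kcnk1), -0.28 (Kcnk3), -0.055 (Kcnt1) and 0.17 (Kcnt2). With quality weights, which give outlying libraries less weight, they were -0.065 (Kcna2), 0.044 (Kcnv1), 0.0093 (Kcnj3), -0.014 (Kcnk1), -0.065 (Kcnk3) and 0.13 (Kcnt2), and with library totals only 0.0041 (Kcnj3). Leaving out each library in turn gave ranges of -0.061 to 0.28 (Kcna1), -0.12 to 0.20 (Kcna2), -0.41 to 0.013 (Kcna4), -0.032 to 0.75 (Kcnc1), -0.037 to 0.58 (Kcnd2), -0.37 to 0.14 (Kcnv1), -0.32 to 0.015 (Kcnq3), -0.48 to 0.032 (Kcnq5), -0.070 to 0.45 (Kcnab2), -0.0066 to 0.48 (Kcnip4), -0.040 to 0.047 (Kcnj3), -0.25 to 2.40 (Kcnj12), -0.095 to 0.41 (Kcnk1), -0.28 to 1.41 (Kcnk3), -0.052 to 0.036 (Kcnma1), -0.11 to 1.10 (Kcnt1), -0.24 to 0.18 (Kcnt2). The library whose removal turned the sign was APP/PS1 replicate 3, except for Kcnj3 and Kcnma1 (APP/PS1 replicate 2 or WT replicate 1) and Kcnab2 (APP/PS1 replicate 1). Levels under about 1 CPM, as for Kcnn4, Kcne3 and Kcnv2, rest on few fragments.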
